A study of Mus musculus with 6 samples.

Results

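The 10 genes described here are *Atf5*, *Atf4* and the stress genes *Ddit3*, *Trib3*, *Chac1*, *Asns*, *Psat1*, *Phgdh*, *Sesn2* and *Ppp1r15a*, measured in mouse liver. They were taken by gene symbol as a named list from a table of 35540 genes, and were chosen by their place in the stress response with earlier results of these mice known, among them the level of *Atf5* in the 2 genotypes. Their differences between genotypes are therefore given as a description, without a test. All 10 reached the minimum set for the comparisons, a mean of 0.1 TPM over the 6 mice, which 14189 genes reached in all. TPM are transcript abundances corrected for transcript length and scaled to the same total in every mouse, so that levels of different genes can be compared.

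*Atf4* and *Atf5* are transcription factors of the integrated stress response, a program that cells use when amino acids are short or when unfolded proteins collect in the endoplasmic reticulum or the mitochondria. Kinases that sense these stresses phosphorylate the initiation factor eIF2, which lowers general translation while the mRNAs of *Atf4*, *Atf5* and *Ddit3* are translated better through short reading frames ahead of their start codon. *Atf4* then raises the transcription of genes for amino acid synthesis and transport, and of genes that switch the response off again. As much of this control acts on translation, mRNA levels do not show how much of these proteins was made.

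The livers came from 3 mice of the genotype *Surf4 fl/fl Alb-Cre+*, called *Alb-Cre+* from here on, and from 3 littermates of the genotype *Surf4 fl/fl Alb-Cre-*, called controls, and RNA of each liver was sequenced as 1 library. Both groups were homozygous for a *Surf4* allele in which exon 2 lies between loxP sites, on the C57BL/6J background. Only the first group carried Cre recombinase driven by the albumin promoter, which acts in hepatocytes. The paper proposes that the unexcised *Surf4* mRNA that remains likely comes from other cell types of the liver. Replicate 2 was a female mouse in either genotype, and the other mice were male. The methods describe an overnight fast before samples were collected, and the age of these mice is not given in the sources used here. *Surf4*, a cargo receptor of the endoplasmic reticulum, was at 59.0, 71.8 and 54.3 TPM in *Alb-Cre+* replicates 1, 2 and 3 and at 92.5, 94.5 and 92.5 TPM in controls. These groups did not overlap, but *Surf4* TPM also count the exons that Cre leaves in place. All 10 hepatocyte markers examined were detected, and their summed level was 68840 to 94050 TPM in *Alb-Cre+* mice against 89390 to 103700 TPM in controls. The summed levels of markers of Kupffer, endothelial, stellate and bile duct cells, leukocytes and erythrocytes also overlapped between genotypes. Those of leukocytes and of Kupffer, endothelial and stellate cells were higher, and those of erythrocytes lower, in both female mice than in every male mouse. The 7 leukocyte markers summed to 125 and 255 TPM in the female mice and to between 21.2 and 46.2 TPM in the male mice. In RNA from whole tissue, fewer cells of a type and less RNA per cell cannot be told apart.

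In GRCm38 with the GENCODE M21 annotation, the genes of the transcription factors lie at chr7:44812256-44816658 on the minus strand (*Atf5*), chr15:80255184-80257541 on the plus strand (*Atf4*) and chr10:127290774-127296288 on the plus strand (*Ddit3*). The regulators of the response lie at chr2:152337422-152344032, minus strand (*Trib3*), chr7:45522916-45526268, minus strand (*Ppp1r15a*) and chr4:132492032-132510501, minus strand (*Sesn2*). The enzymes lie at chr6:7675169-7693254, minus strand (*Asns*), chr19:15904678-15947337, minus strand (*Psat1*), chr3:98313170-98339990, minus strand (*Phgdh*) and chr2:119351229-119354381, plus strand (*Chac1*). The 5′ leader of the leading transcript is 373 bases long in *Atf5* and holds 2 ATG triplets, and in *Atf4* it is 594 bases long and holds 3. In each of these mRNAs 1 of the upstream reading frames runs across the main start codon, the layout through which both are known to be translated under stress. *Psat1* also has such a frame, and the share among 12415 genes with an annotated leader was 16.1%. At least 1 upstream ATG was present in 7 of the 10 genes (*Atf5*, *Atf4*, *Ddit3*, *Asns*, *Psat1*, *Sesn2* and *Ppp1r15a*) and in 48.7% of those 12415 genes.

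*Atf4* acts on DNA through C/EBP-ATF response elements, and these are shown because *Atf4* is known to act on several of the listed genes through them. The window was 250 bases before to 50 bases after each start site in RefSeq (GRCm38), read on both strands. The letters TGATGNAA were found in the promoters of *Chac1*, *Trib3* and *Asns*, in 3 of 12 promoters of the listed genes and in 3.97% of 32851 mouse promoters. *Atf5* and *Psat1* enter the 12 promoters with alternative start sites. In the following lines, 5′ to 3′ on the strand of the gene, the capitals mark the match, which lies on the opposite strand in *Chac1* and *Trib3*.
*Chac1*, chr2:119351038-119351067, plus strand: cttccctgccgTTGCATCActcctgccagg
*Trib3*, chr2:152344039-152344057, minus strand: ttagctcaggtTTACATCA
*Asns*, chr6:7693214-7693243, minus strand: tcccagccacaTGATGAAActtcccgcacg

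The looser letters TGNTGNAA, which include every match to TGATGNAA, occurred in 6 of the 12 promoters and in 14.8% of all promoters. They added a further match in *Trib3* and matches in *Psat1*, *Phgdh* and *Sesn2*, on the opposite strand in *Sesn2*. *Ppp1r15a* held the cAMP response element TGACGTCA, which occurred in 1.79% of promoters. These matches are shown in capitals in the next lines.
*Trib3*, chr2:152344075-152344104, minus strand: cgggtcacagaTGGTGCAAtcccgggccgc
*Psat1*, chr19:15925177-15925206, minus strand: acgcgggtggcTGGTGCAAtcccctgctct
*Phgdh*, chr3:98340074-98340103, minus strand: aagggcttcacTGCTGGAAgtgtagtctgt
*Sesn2*, chr4:132510656-132510685, minus strand: catgcaaaagtTTGCAGCAtctgtgcgagg
*Ppp1r15a*, chr7:45526269-45526291, minus strand: cgcctctccggTGACGTCAgcac

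Neither set of letters for the C/EBP-ATF element was in the windows of *Atf5*, *Atf4*, *Ddit3* and *Ppp1r15a*, and the endoplasmic reticulum stress element, searched for by its full letters, was in none of the 12 and in 0.119% of all promoters. A match is a description of the sequence and not evidence of binding in these livers. The letters were chosen after the promoters were seen, and for genes that *Atf4* is known to act on. Nothing is therefore read from the shares.

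The listed genes spanned more than 3 orders of magnitude in liver. *Atf5* was the most abundant in both genotypes, and *Atf4* came next. The range of *Atf5* over mice lay apart from that of *Atf4*, and the range of *Atf4* apart from that of the gene after it, in each genotype. From *Ddit3*, *Ppp1r15a* and *Trib3* down to *Chac1* and *Psat1*, each gene overlapped in range with its neighbor in the order. *Phgdh* was the least abundant, with a mean of 0.148 TPM over the 6 mice, just above the minimum for testing, and lay apart from *Psat1*.

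**Figure D1:**
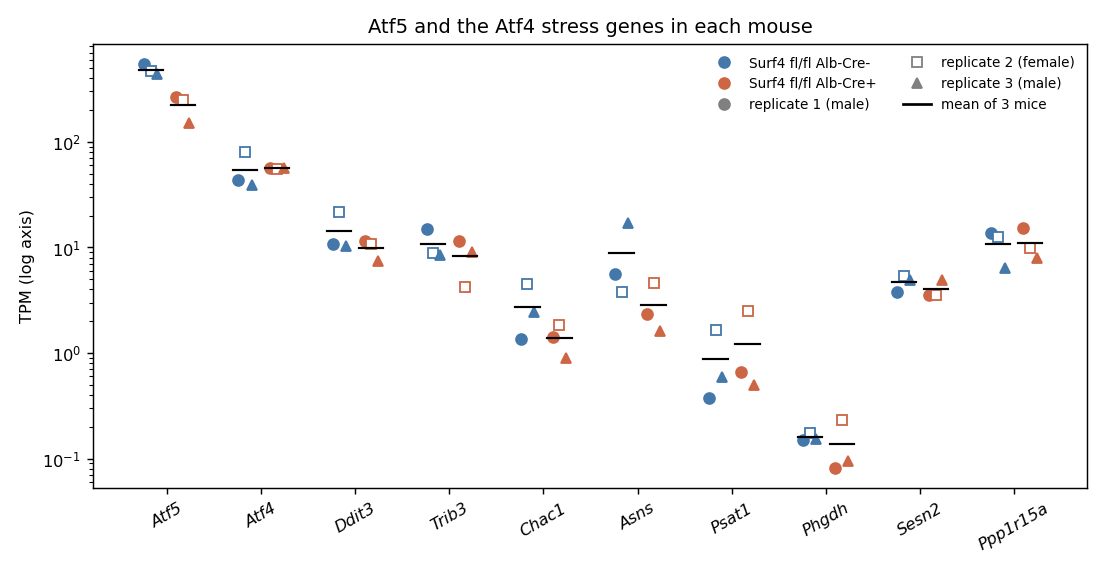
TPM of the 10 genes (log axis) in each of the 6 mice, blue for *Alb-Cre-* and orange for *Alb-Cre+*, with the replicate given by the marker and the mean of 3 mice by a black line. *Atf5* is the only gene of the 10 whose points do not overlap between genotypes, at 152 to 267 TPM against 435 to 544 TPM.

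*Atf5*, known for its part in the mitochondrial stress response and for high expression in liver, was at 267, 247 and 152 TPM in *Alb-Cre+* replicates 1, 2 and 3 and at 544, 472 and 435 TPM in the controls. Each *Alb-Cre+* mouse was below all controls. It was thus also below the control with the same replicate number in all 3 pairs, as 12.4% of all genes were. The mean was 222 ± 61.6 TPM (SD, n = 3) against 483 ± 55.4 TPM (SD, n = 3), which is 54.1% lower, and the rank of *Atf5* among the 14189 genes was 529 against 275. On log2(TPM + 0.1), the scale of all log2 differences here, the difference of *Alb-Cre+* mice minus controls was -1.16 (standard error 0.23). The differences within pairs of same-numbered mice were -1.03, -0.93 and -1.52. When mice were left out in turn the difference stayed between -1.31 and -0.91, the latter without *Alb-Cre+* replicate 3, the mouse with the lowest *Atf5* and the lowest summed hepatocyte markers (68840 TPM). Genes of which the 2 genotypes did not overlap made up 4.9% of all genes tested, with 2.71% lower in *Alb-Cre+* mice, and 1 of the 10 listed genes was among them. As the genes were listed with these values known, nothing is read from that count.

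Between 99.4% and 99.8% of *Atf5* TPM in every mouse came from the transcript ENSMUST00000047356, so nearly all of the difference lay in that transcript. Its 1816 exonic bases overlap exons of *Nup62* and *Il4i1* on the opposite strand by 82 bases (4.52%), and the sources used here do not say whether the libraries kept the strand. *Nup62* was between 4.01 and 5.62 TPM in *Alb-Cre+* mice and between 4.02 and 5.83 TPM in controls, and *Il4i1* was below 1 TPM in every mouse. None of the stretches of 31 bases in *Atf5* transcripts occurred in the transcripts of another annotated gene when read in the sense direction. That comparison does not cover the 82 bases on the opposite strand.

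*Atf4* was at 56.5, 55.8 and 56.3 TPM in *Alb-Cre+* replicates 1, 2 and 3 and at 44.0, 80.7 and 39.0 TPM in controls. The groups overlapped, with the female control highest and the male controls lowest, and the 3 *Alb-Cre+* mice within 1 TPM of each other. The log2 difference was 0.12 (standard error 0.26), and it ranged from -0.09 to 0.44 with a mouse left out. The ratio of *Atf5* to *Atf4* TPM was 4.72, 4.44 and 2.70 in *Alb-Cre+* mice and 12.4, 5.84 and 11.2 in controls. These ratios did not overlap either, and the female control came closest to the *Alb-Cre+* mice.

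*Ddit3*, which encodes the transcription factor Chop, was at 11.6, 10.8 and 7.5 TPM in *Alb-Cre+* replicates 1, 2 and 3 and at 10.8, 21.5 and 10.3 TPM in controls. The groups overlapped, and the female control stood above the other 5 mice. The log2 difference of -0.44 (standard error 0.32) became -0.10 without that control. The leading *Ddit3* transcript held 86.8% to 94.3% of its TPM, and a short transcript listed under another gene identifier (ENSMUST00000230446) was at 0.829 TPM in control replicate 3 and listed at 0 in the other mice. The leading transcript shares 68 of its 890 exonic bases (7.64%) with the methionyl-tRNA synthetase gene and 13 (1.46%) with *Gm4189*, both on the opposite strand. The synthetase gene (*Mars1*) was at 24.4, 26.3 and 21.6 TPM in *Alb-Cre+* mice and 21.8, 22.2 and 21.1 TPM in controls, above *Ddit3* in every mouse. Whether reads of that gene enter the *Ddit3* values was not tested.

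**Figure D2:**
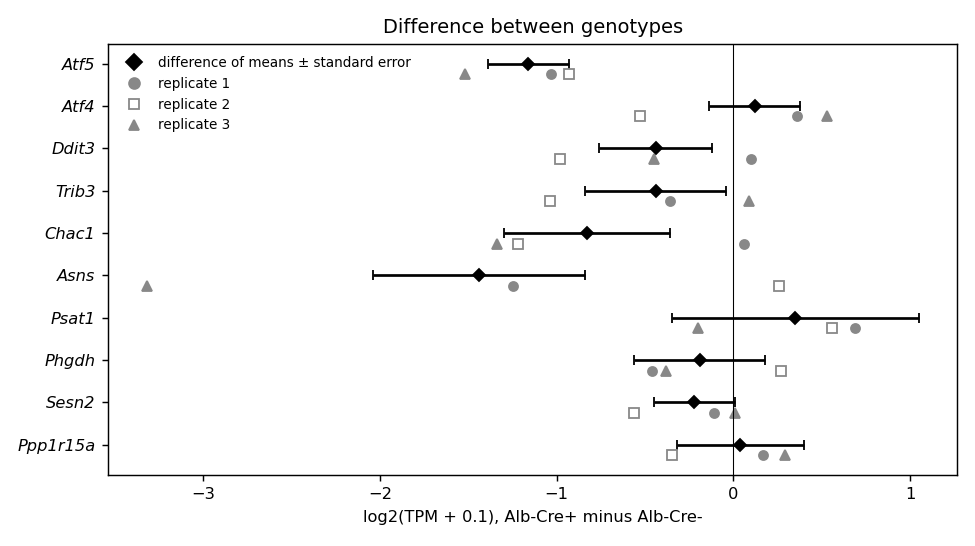
Log2 difference in TPM, *Alb-Cre+* minus *Alb-Cre-*, for the 10 genes, with black diamonds for the difference of means, bars for ± 1 standard error of the linear model and grey markers for the differences between same-numbered mice. The 3 grey markers lie on the same side of 0 only for *Atf5* (-1.03, -0.93 and -1.52), and those of *Asns* range from -3.32 to 0.26.

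*Trib3*, a pseudokinase that restrains *Atf4* and Chop, was at 11.5, 4.26 and 8.97 TPM in *Alb-Cre+* replicates 1, 2 and 3 and at 14.9, 8.87 and 8.45 TPM in controls. The groups overlapped, and the log2 difference was -0.44 (standard error 0.40). It shrank to -0.03 without *Alb-Cre+* replicate 2, the lowest of the 6 mice. *Ppp1r15a*, the phosphatase subunit Gadd34 that removes the phosphate from eIF2, was at 15.4, 9.78 and 7.86 TPM against 13.8, 12.5 and 6.40 TPM. Replicate 1 was highest and replicate 3 lowest in both genotypes, and the log2 difference was 0.04 (standard error 0.36). *Sesn2*, a leucine sensor that restrains mTORC1, was at 3.52, 3.57 and 4.97 TPM against 3.82, 5.32 and 4.94 TPM, with a log2 difference of -0.22 (standard error 0.23). Its groups overlapped as well, as did those of *Ppp1r15a*.

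*Asns*, asparagine synthetase, had the widest spread of the 10 genes among controls on the log2 scale, at 5.64, 3.81 and 17.1 TPM in replicates 1, 2 and 3, and was at 2.32, 4.58 and 1.62 TPM in *Alb-Cre+* mice. The groups overlapped, as the female *Alb-Cre+* mouse was above the female control. The log2 difference was -1.44 (standard error 0.60), larger in size than that of *Atf5* but with a wider error, and control replicate 3 alone moved it to -0.82 when left out. *Mthfd1l*, a mitochondrial one-carbon enzyme of the related pathways, was also highest in that mouse, at 3.08 TPM against 0.293 to 1.46 TPM in the others.

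*Psat1* and *Phgdh* encode enzymes of serine synthesis, which adult liver expresses at low levels. *Psat1* was at 0.661, 2.49 and 0.498 TPM in *Alb-Cre+* replicates 1, 2 and 3 and at 0.373, 1.66 and 0.589 TPM in controls. The female mice were highest in both genotypes, and the log2 difference between genotypes was 0.35 (standard error 0.70). *Phgdh* was at 0.0816, 0.234 and 0.0946 TPM against 0.150, 0.176 and 0.154 TPM, a log2 difference of -0.19 (standard error 0.37). *Phgdh* values are uncertain, since 55.8% of the stretches of 31 bases in its transcripts also occur in pseudogenes or other annotated genes. *Psat1* shared 2.18% and *Ddit3* 0.175% of such stretches, and none were shared in the other 7 genes. Transcripts were compared in the sense direction only, so overlaps with genes on the opposite strand are not counted in these shares.

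*Chac1*, which degrades glutathione and is induced by *Atf4*, was at 1.43, 1.86 and 0.897 TPM in *Alb-Cre+* replicates 1, 2 and 3 and at 1.37, 4.46 and 2.43 TPM in controls. The groups overlapped through control replicate 1, and the female control was highest. The log2 difference was -0.83 (standard error 0.47), between -1.24 and -0.42 with a mouse left out. In all, 7 of the 10 log2 differences were below 0, with a median of -0.33 against a median of 0 over all genes tested, for which 7145 of 14189 were below 0. The median of the 10 genes was -0.03 between the mice numbered 1, -0.55 between the female mice numbered 2 and -0.29 between the mice numbered 3. The medians of all genes for these pairs were -0.02, 0.15 and -0.14.

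Within a genotype, the genes did not move as a block. In *Alb-Cre+* mice, replicate 1 was highest for *Atf5*, *Atf4*, *Ddit3*, *Trib3* and *Ppp1r15a*, and the female replicate 2 for *Chac1*, *Asns*, *Psat1* and *Phgdh*. Over all genes tested, replicate 1 was highest for 22.7% and replicate 2 for 69.8%. Replicate 3 was lowest for 6 of the 10 genes, as it was for 67.2% of all genes tested. In controls, the female replicate 2 was highest for 6 of the 10 genes (*Atf4*, *Ddit3*, *Chac1*, *Psat1*, *Phgdh* and *Sesn2*), near the 50.7% of all genes for which it was highest. Control replicate 3 was lowest for *Atf5*, *Atf4*, *Ddit3*, *Trib3* and *Ppp1r15a*, and for 45.4% of all genes, and it was highest for *Asns*.

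**Figure D3:**
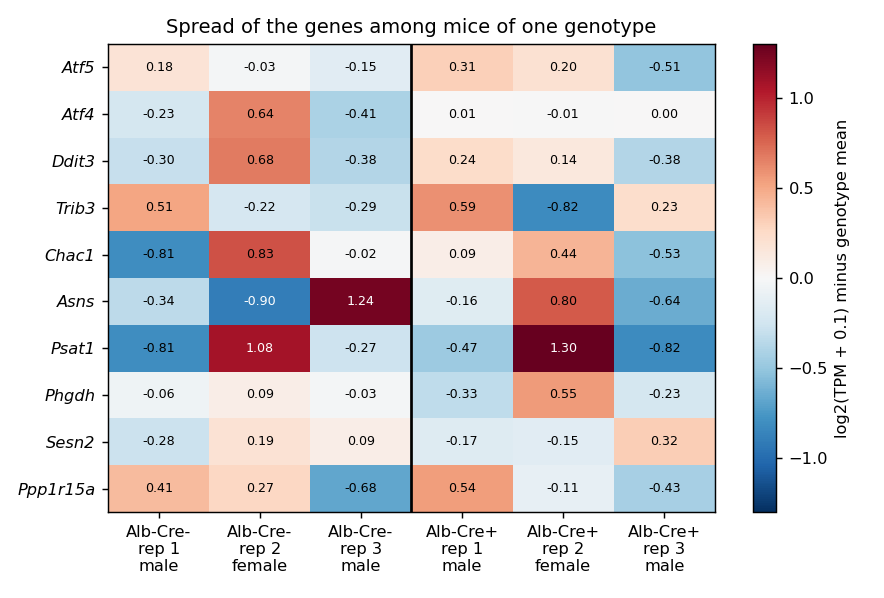
Deviation of each gene in each mouse from the mean of its genotype on log2(TPM + 0.1), in red above and in blue below the mean, with control mice on the left. *Psat1* deviates by 1.08 and 1.3 in the female mice, *Asns* by 1.24 in control replicate 3, and *Atf4* by at most 0.01 in size in *Alb-Cre+* mice.

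Over the deviations of the 6 mice from their genotype mean, the 45 pairs of listed genes had a median Pearson correlation of 0.14, and 28 were above 0. The values are descriptions over 6 libraries that share sex and scaling. The highest were 0.88 for *Chac1* with *Psat1*, 0.86 for *Atf4* with *Ddit3* and 0.85 for *Ddit3* with *Chac1*. Among the 4 male mice alone these were 0.99, 0.16 and 0.51. The lowest was -0.89 for *Atf5* with *Sesn2*, which was -0.97 among the male mice. Deviations of the male mice were taken from the male mean of each genotype, so they mirror each other within a genotype. Such correlations tend to be extreme, and nothing is read from setting them beside those of the 6 mice. *Atf5* with *Atf4* was not among the pairs above 0.7 or below -0.7.

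Sex was not used to list the genes and could be tested. The comparison of 2 female with 4 male mice held genotype fixed, with limma and adjustment over all genes by the Benjamini-Hochberg method. Female mice were replicate 2 in both genotypes, so sex cannot be told apart from whatever else that number stands for. The median of all genes was itself 0.26 higher in female mice on the log2 scale with TPM as deposited and -0.01 after scaling by the median of ratios. At an adjusted p of 0.01 limma called 73 genes (0.514%), and 0 of the 10 listed genes. At an unadjusted p of 0.05, 4 of the 10 listed genes passed (*Psat1*, *Chac1*, *Ddit3* and *Trib3*), against 28.7% of all genes.

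*Psat1* was at 2.49 and 1.66 TPM in the female mice and between 0.373 and 0.661 TPM in the male mice. The sexes did not overlap in *Psat1* and in *Phgdh*, with female mice higher, as for 36.6% of all genes. The mean of *Psat1* was 3.92 times as high in female mice, with a log2 difference of 1.78 (95% interval 1.1 to 2.46, limma adjusted p = 0.0216), which is 1.52 above the median gene. It was the only listed gene under an adjusted p of 0.05, a level that 7.18% of genes passed. Over the alternative settings its adjusted p ranged from 0.0136 to 0.253, the highest without the female *Alb-Cre+* mouse. *Psat1* was below 1 TPM in every male mouse, and with a pseudocount of 1 TPM the log2 difference was 1.0. A second *Psat1* transcript (ENSMUST00000162053) held 31.3%, 44.3% and 26.2% of its TPM in *Alb-Cre+* replicate 1 and control replicates 1 and 3. That transcript was at 0% in the other mice. Markers of Kupffer cells moved with *Psat1*, at 286 and 328 TPM in female and 93.1 to 138 TPM in male mice, as did those of leukocytes, and their part in the difference was not tested.

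**Figure D4:**
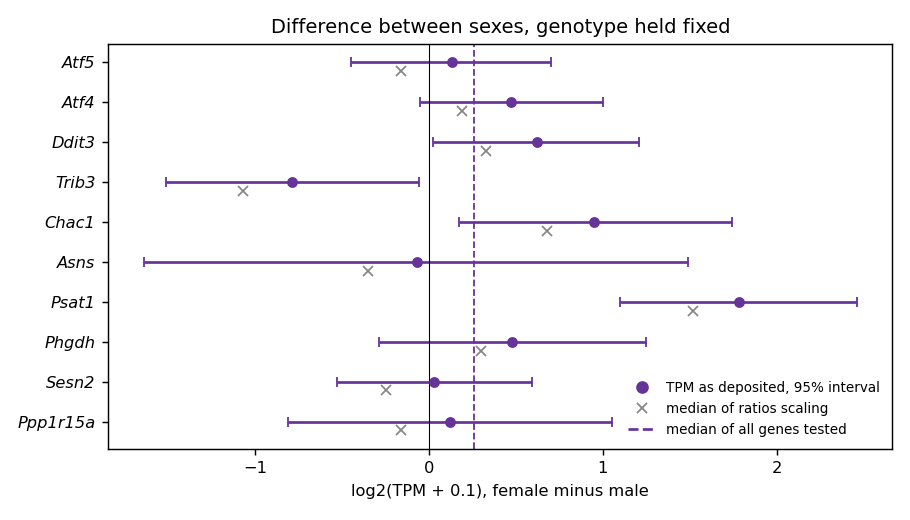
Log2 difference in TPM, female minus male with genotype held fixed, for the 10 genes, with circles for TPM as deposited, bars for 95% intervals of the linear model, crosses for scaling by the median of ratios and a dashed line at the median of all genes (0.26). *Psat1* is farthest to the right (1.78), *Trib3* is to the left of 0 (-0.79), and the intervals of *Atf5*, *Atf4*, *Asns*, *Phgdh*, *Sesn2* and *Ppp1r15a* include 0.

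*Trib3* ran the other way, at 4.26 and 8.87 TPM in female and 8.45 to 14.9 TPM in male mice. Its log2 difference was -0.79 (95% interval -1.51 to -0.06), which is 1.04 below the median gene, with a limma adjusted p of 0.152. *Chac1* and *Ddit3* had log2 differences of 0.95 (95% interval 0.17 to 1.74) and 0.62 (95% interval 0.02 to 1.21) and limma adjusted p of 0.122 and 0.164. They lay 0.70 and 0.36 above the median gene, and their log2 differences were 0.68 and 0.33 with the median of ratios. For *Atf5* the log2 difference was 0.13 (95% interval -0.45 to 0.70) and for *Atf4* 0.47 (95% interval -0.05 to 1.00). *Atf5* was thus close to the median gene, and its difference turned to -0.16 with the median of ratios.

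Whether the sex difference depended on genotype was tested with an interaction term, which rests on 1 female mouse per genotype. No gene reached an adjusted p of 0.05 in limma, and 862 (6.08%) had an unadjusted p under 0.05. *Atf4* was the listed gene with the smallest unadjusted p, 0.00641 (adjusted p = 0.775), as the female control was at 80.7 TPM against 44.0 and 39.0 TPM in male controls while the *Alb-Cre+* mice were all near 56 TPM.

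Genes around the listed ones were examined as 8 lists. In the comparison of genotypes with limma, 250 of 14189 genes (1.76%) were under an unadjusted p of 0.05 and 0 (0.0%) under an adjusted p of 0.01. None of the lists held a gene past the adjusted threshold. At an unadjusted p under 0.05, 5 genes of the 8 lists were found, *Gpt2*, *Slc7a2*, *Slc38a4*, *Ddit4* and *Ero1b*. With replicate number as a block, 666 genes (4.69%) were under an unadjusted p of 0.05 and 0 under the adjusted p of 0.01. *Surf4*, the gene that Cre acts on, passed in neither fit, with a limma adjusted p of 0.9999, and of 0.4715 with the block. The smallest limma adjusted p without the block was 0.4556, that of *Derl3*. The paper, which used DESeq2, reports limited changes in expression between these genotypes and names *Derl3* as the most significantly raised gene. It also reports significantly lower levels of several genes of fatty acid synthesis. For *Ire1*, *Atf6* and *Perk*, genes of the unfolded protein response, it reports no rise. The counts of 0 therefore do not show that the genotypes were alike.

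**Figure D5:**
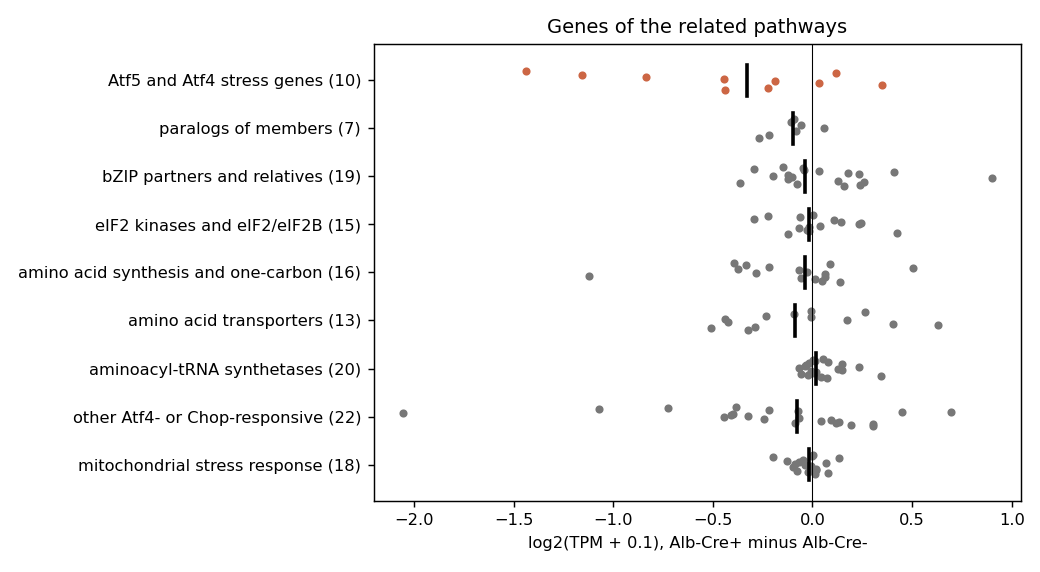
Log2 difference in TPM, *Alb-Cre+* minus *Alb-Cre-*, for each gene of the listed genes (orange) and of 8 related lists (grey), with the number of genes tested in brackets and a black bar at the median. The medians of the 8 related lists lie between -0.10 and 0.02, and the points farthest from 0 are *Fgf21* (-2.05), *Asns* (-1.44), *Atf5* (-1.16) and *Mthfd1l* (-1.12).

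The 7 closest relatives or pathway partners of the listed genes (*Trib1*, *Trib2*, *Sesn1*, *Sesn3*, *Chac2*, *Ppp1r15b* and *Psph*) had log2 differences between genotypes from -0.27 to 0.06, with a median of -0.10, and 6 were below 0. *Ppp1r15b*, the constitutive partner of the eIF2 phosphatase, was at 19.8 to 28.2 TPM in *Alb-Cre+* mice and 21.7 to 29.3 TPM in controls, more than *Ppp1r15a* on the same scale in every mouse. Among the 19 other bZIP transcription factors, 9 were higher and 10 lower, with a median of -0.04. With the block, *Creb3l3*, the liver factor Crebh, and *Cebpe* had an unadjusted p under 0.05. *Creb3l3* was at 252, 274 and 210 TPM in *Alb-Cre+* replicates 1, 2 and 3 and at 221, 211 and 183 TPM in controls, a log2 difference of 0.26 (standard error 0.09 with the block).

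Upstream of *Atf4* and *Atf5*, the 15 genes of eIF2 kinases, eIF2 and eIF2B had a median log2 difference of -0.02, with 7 higher and 8 lower. *Eif2ak1*, the heme-regulated kinase, was the gene of this list whose groups did not overlap, at 14.1, 12.7 and 14.1 TPM in *Alb-Cre+* mice and 15.4, 16.1 and 16.3 TPM in controls, a log2 difference of -0.22 (standard error 0.13). The 18 genes of the mitochondrial stress response, in which *Atf5* is known to act, ranged from -0.20 to 0.14 with a median of -0.02. *Clpx*, a mitochondrial protease subunit, was at -0.20 (standard error 0.25), and no gene of this list had an unadjusted p under 0.05 with or without the block.

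Downstream, the 20 aminoacyl-tRNA synthetases had a median log2 difference of 0.02, with 13 higher and 7 lower. *Vars*, the valyl-tRNA synthetase, was at 11.5, 10.5 and 11 TPM in *Alb-Cre+* mice and 9.70, 7.95 and 8.30 TPM in controls, a log2 difference of 0.35 (standard error 0.15), and its groups did not overlap. Among 16 genes of amino acid synthesis and one-carbon metabolism, the median was -0.04. *Gpt2*, the mitochondrial alanine aminotransferase, was at 297, 274 and 310 TPM against 354, 362 and 354 TPM, a log2 difference of -0.28 (standard error 0.11).

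The 13 amino acid transporters had a median log2 difference of -0.09, with 9 lower. *Slc7a2*, which carries cationic amino acids, was at 115, 126 and 99.6 TPM in *Alb-Cre+* mice and 132, 176 and 179 TPM in controls, and *Slc38a4*, which carries neutral amino acids, was at 473, 537 and 501 TPM against 600, 644 and 820 TPM. Neither gene overlapped between groups, with log2 differences of -0.51 and -0.44 (standard error 0.16 each). With the block, *Slc3a2* and *Slc6a9* were also under an unadjusted p of 0.05, which made 4 genes of this list in place of 2.

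Of 22 other genes known to respond to *Atf4* or Chop, 9 were higher and 13 lower, with a median of -0.08. *Ero1b*, an oxidase of the endoplasmic reticulum, was at 22.8, 18.9 and 18.3 TPM in *Alb-Cre+* mice and 14.7, 9.84 and 12.7 TPM in controls, a log2 difference of 0.69 (standard error 0.19), and its groups did not overlap. *Fgf21*, a fasting hormone of the liver, was at 4.52, 16.9 and 2.57 TPM against 22.7, 70.4 and 9.19 TPM. The *Fgf21* groups overlapped, but each *Alb-Cre+* mouse was below the control of its number, with log2 differences of -2.31, -2.06 and -1.80. The log2 difference of *Fgf21* was -2.05, with a standard error of 0.88 without the block and 0.14 with it, and the limma adjusted p with the block was 0.058. *Ddit4*, an inhibitor of mTORC1, was at 43.5, 28.7 and 12.7 TPM against 45.4, 45.4 and 72.1 TPM, a log2 difference of -1.07 (standard error 0.44), and its groups did not overlap. Among the 22 genes, groups did not overlap for 1 higher and 3 lower, against 4.9% of all genes in either direction. With the block, *Ddit4* was no longer under an unadjusted p of 0.05 and *Ero1b* still was, and *Fgf21*, *Vegfa*, *Bcl2l11* and *Zfp36l1* were added, which made 5 genes in place of 2. In the comparison of sexes with limma, 8 of the 22 genes were under an adjusted p of 0.05, against 7.18% of all genes. It was 3 of 19 bZIP factors, 3 of 13 transporters, 2 of 15 eIF2 and kinase genes, and 0 in the other lists. The lists were chosen with earlier results known, and sex cannot be told apart from the replicate number. Nothing is therefore read from these counts. *Fgf21* was among the 8, with a log2 difference of 2.27 (limma adjusted p = 0.0241).

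The genes most like *Atf5* were sought among the 7051 genes whose mean was 5 TPM or more. Over log2 levels in the 6 mice, which include the difference between genotypes, the highest Pearson correlations were 0.992 for *2810025M15Rik*, 0.987 for *Cutc*, 0.985 for *Pcyt2*, 0.984 for *Mrpl9* and 0.984 for *Tmem208*. *Pcyt2*, an enzyme of phosphatidylethanolamine synthesis, was at 131, 123 and 102 TPM in *Alb-Cre+* mice and 183, 175 and 151 TPM in controls, and its order over the mice of each genotype was that of *Atf5*. Over deviations from the genotype mean, the highest were 0.999 for *As3mt*, 0.997 for *Ltbp4*, 0.997 for *Hcfc1r1*, 0.994 for *Apoc2* and 0.994 for *Igfbp1*. *Apoc2*, the cofactor of lipoprotein lipase, was at 596, 473 and 221 TPM in *Alb-Cre+* mice and 992, 758 and 699 TPM in controls, a log2 difference of -1.02 (standard error 0.36). *Igfbp1*, a binding protein of insulin-like growth factors, was at 632, 483 and 159 TPM against 834, 683 and 499 TPM, with overlapping groups. These correlations were the highest of 7051 over the same 6 libraries, and no listed gene was among them. *Chac1*, *Psat1*, *Phgdh* and *Sesn2* had means below 5 TPM and were not compared.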

How the data were processed

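Liver RNA of 6 mice was sequenced, with 1 library per mouse. The authors deposited TPM for 116748 transcripts, with a total of 1000000 per mouse. The methods and the submitters' processing notes name STAR and RSEM with GRCm38, while the name of the deposited table points to salmon, and the versions of these tools were not given in the sources used here. TPM keep no read numbers, so the depth is not known and counting errors cannot be stated. The number of mice limits the precision, and p-values weigh a difference against the spread between these mice. With 1 library per mouse, that spread also holds technical variation. A deposited table of the authors' own DESeq2 comparison (mean normalized count, log2 fold change, its standard error, Wald statistic, p-value and adjusted p-value) was not used.

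TPM were summed per gene symbol, leaving out 163 transcripts without a symbol (0.0515% to 0.0887% of TPM). Values of genes that reached 0.1 TPM on average were fitted as log2(TPM + 0.1) in limma 3.58.1 (R 4.3.3), with empirical Bayes variances and a trend on mean expression. Adjusted p-values are those of Benjamini and Hochberg over all genes tested. The scale understates the change of low genes. The threshold was an adjusted p of 0.01. The fits for genotype, and for sex with genotype held fixed, used all 6 mice, and the scripts were tested on simulated data. Groups were those of the labels. Deviations from the genotype mean correlated across genes by 0.367, 0.588 and 0.37 between mice of the same replicate number and by -0.444 to 0.171 between others. The value of 0.588 is between the female mice, so sex enters these correlations, and the labels do not say that same-numbered mice are paired. From these data the numbers were taken to pair the mice, and a fit with replicate number as a block was run beside the main fit.

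The listed genes and all other lists were chosen with earlier results of these data known. Named are the 10 genes, *Surf4*, the 7 relatives, from each other list up to 3 genes with the smallest unadjusted p and a mean of at least 1 TPM, and the 5 genes most like *Atf5* by each measure. Some genes that a count in a list rests on, or that overlap a listed gene, are named as well, chosen after their values were seen. Positions are those of GENCODE M21, matched by transcript identifier without version for 115637 of the 116748 transcripts. Promoters are from RefSeq, and the motif letters were chosen after the promoters were seen. The alternatives tried were a block for the replicate number, sex as covariate, a pseudocount of 1 TPM, no filter, a minimum of 1 TPM, scaling by the median of ratios, no trend, each mouse left out in turn and an adjusted p of 0.05.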

Additional observations from a re-analysis of the deposited data

How the results depend on the processing

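The count of genes past an adjusted p of 0.01 between genotypes was 0 under every alternative, except that it was 1 without *Alb-Cre+* replicate 1, so its range with a mouse left out was 0 to 1. With the replicate block it was also 0, and the block changed no call of a listed gene, as none was made. Sex is nested in the replicate number, so no paired fit of the sex difference was possible. For sex the count of 73 became 28 without the filter, 31 without the trend and 1019 at an adjusted p of 0.05. With a mouse left out it ranged from 3 to 51, was 3 without either female mouse, 32 without *Alb-Cre+* replicate 3 and 43 without *Alb-Cre+* replicate 1.

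The 129 alternative values of the genotype differences of the 10 genes moved by less than the spread between replicates. With a mouse left out that outcome is fixed in advance, so nothing is read from it. The differences of *Psat1* and *Ppp1r15a* changed sign in 2 of 13 alternatives each and that of *Atf4* in 1. The block, sex as covariate, the filters and the trend cannot change these differences, as both genotypes hold the same replicate numbers and sexes. Values under those settings were thus the same by design. Of the sex differences, 14 alternative values changed sign and 95 did not. None of the 10 genes had passed the threshold for sex, so this says nothing of genes that pass. The filters and the trend cannot change a sex difference either. *Atf5* was -0.16 with the median of ratios, -0.04 without *Alb-Cre+* replicate 2 and -0.07 without *Alb-Cre+* replicate 3. With a mouse left out *Atf5* reached at most 0.3. *Atf4* was -0.02 without *Alb-Cre-* replicate 2 and at most 0.96. *Asns* was 1.2 without *Alb-Cre-* replicate 2 and 0.45 without *Alb-Cre-* replicate 3, and as low as -1.34 without *Alb-Cre+* replicate 2. *Sesn2* was -0.25 with the median of ratios and -0.04, -0.08 and -0.22 without *Alb-Cre+* replicate 1, *Alb-Cre-* replicate 1 and *Alb-Cre-* replicate 2, and at most 0.29. *Ppp1r15a* was -0.16 with the median of ratios and -0.05, -0.17 and -0.16 without *Alb-Cre+* replicate 3, *Alb-Cre-* replicate 2 and *Alb-Cre-* replicate 3, and at most 0.41. The cause was not tested. *Phgdh* was not tested at a minimum of 1 TPM.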
